A study of Mus musculus with 12 samples.

Results

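The mice described here are the 6 GFP Ctrl animals among the 12 sequenced mice, which received an AAV5 vector expressing GFP alone. They form 2 sets of 3. One set carries the miR-34 experiment in its labels (mice 10, 4 and 8). The other set (mice 16, 2 and 8) belongs to the miR-9 experiment, an assignment that follows from the treatment protocol, since the titles of these mice name no experiment. All 6 were male C57BL/6 mice, injected at an age of 10 weeks, and both hippocampi of each were removed 10 weeks later and make up 1 sample. The synapsin promoter limits the vector's GFP to neurons, whereas the RNA came from the entire hippocampus, with injected and uninjected cells of every type. The deposited labels call the cell type hippocampal neurons. The remaining 6 mice carried GFP-miR-34sp or GFP-miR-9sp, sponges that sequester the named miRNA, and are used only to compare the 2 experiments in other animals. Each set of GFP Ctrl mice served as the reference for its own sponge group, and the sets are compared here directly.

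Both sets received the same vector at the same age, so a comparison between them asks how alike 2 control groups of one study are. Any difference in animals, library preparation, sequencing or mapping goes with the experiment, and these cannot be told apart. Only the miR-9 experiment has count columns marked totRNA, although poly-A enrichment is the one preparation that the methods name. The raw counts cover 32850 RefSeq transcripts, of which 28513 are coding (NM_) and 4337 are non-coding (NR_). The total count was 11029604 to 13656685 per mouse in the miR-34 experiment and 19003542 to 24428477 in the miR-9 experiment, and 3 reads, the limit that a count of 0 allows, correspond to between 1.23e-05% and 2.72e-05% of a library. Levels are given as CPM, counts scaled to a common library size with TMM factors, and differences as log2 fold changes of the miR-34 experiment minus the miR-9 experiment, with their standard error (SE).

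Many abundant housekeeping genes have left processed pseudogenes in the mouse genome, copies of their spliced mRNA that were reverse transcribed and inserted elsewhere. Recent gene duplicates such as the alpha-tubulins share long stretches of identical coding sequence in the same way. A short read from such a gene matches several places equally well, and its count depends on how the mapping and counting treat a read with several matches, a rule that is not given in the sources used here. Ribosomal protein genes and histone genes are textbook cases. For this reason every transcript was described by its multi-place percent, the share of its 50-base windows, the length of the reads, that occur at more than 1 place in mm9. A transcript with none was called single-place.

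The following coding windows show what this means for 3 of the genes with the largest differences and for 4 genes whose coding windows had no second place. Capitals mark a window found at more than 1 place in mm9, and lower case marks a window found only in its own exon. All lie in annotated coding exons and are written 5′ to 3′ on the strand of the gene.
Ppia (chr11:6319481-6319530, plus strand): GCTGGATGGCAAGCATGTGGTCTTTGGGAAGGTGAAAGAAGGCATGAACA
Rps23 (chr13:91064222-91064271, plus strand): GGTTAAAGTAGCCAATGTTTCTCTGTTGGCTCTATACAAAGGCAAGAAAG
Atp5g2 (chr15:102495559-102495608, minus strand): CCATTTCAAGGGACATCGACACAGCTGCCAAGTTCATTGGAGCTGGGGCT
Sdha (chr13:74487607-74487656, minus strand): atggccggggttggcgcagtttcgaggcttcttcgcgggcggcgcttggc
Larp4b (chr13:9121392-9121441, plus strand): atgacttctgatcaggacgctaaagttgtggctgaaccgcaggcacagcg
Rxfp1 (chr3:79509585-79509634, minus strand): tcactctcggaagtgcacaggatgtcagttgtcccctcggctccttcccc
Col5a1 (chr2:27742336-27742385, plus strand): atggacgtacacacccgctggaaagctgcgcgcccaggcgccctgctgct

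The Ppia window occurred at 11 places in mm9, 5 of them in annotated pseudogenes and 3 outside any annotated gene. The Rps23 window occurred at 10 places, 5 of them in pseudogenes. The Atp5g2 window occurred at 5 places. All 54 coding windows examined in Ppia, all 57 in Rps23 and all 51 in Atp5g2 had more than 1 place. So did all 150 in Pgk1, whose log2 fold change was much smaller at 1.01. None of the coding windows in Sdha, Larp4b, Rxfp1 or Col5a1 had a second place, with 285 examined in Larp4b, 285 in Rxfp1 and 473 in Col5a1.

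The sets differed in many transcripts, and the large differences were mostly in 1 direction. A mean of more than 10 scaled reads was required, which left 13232 transcripts, and 3249 of them (24.6%) passed the quasi-likelihood test of edgeR at an adjusted p of 0.05. They comprised 1823 (13.8%) that were higher in the miR-34 experiment and 1426 (10.8%) that were lower. A difference of at least 2-fold was found for 463 higher (3.5%) and 47 lower transcripts (0.355%). The 3 mice of one set lay entirely above or below the 3 of the other for 5312 transcripts (40.1%), with 2766 (20.9%) higher and 2546 (19.2%) lower in the miR-34 experiment. The mice within a set resembled each other more closely than those of different sets, with Pearson correlations of log2(CPM + 1) across transcripts of 0.9945 to 0.9974 within sets and 0.9821 to 0.9845 between them. The share of calls that were higher depended on the scaling. It was 56.1% with TMM, 36.4% with total counts and 67.5% with TMM factors taken from single-place transcripts only, and total counts moved the median of all transcripts to -0.06.

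The direction of the difference followed the multi-place percent (plot of fold change by multi-place percent). Among 8562 single-place transcripts, 585 (6.83%) were higher and 1064 (12.4%) lower in the miR-34 experiment, with a median log2 fold change of -0.03. Among 399 transcripts with a multi-place percent above 25 and up to 50, 283 (70.9%) were higher and 4 lower, with a median of 0.47. Among 183 transcripts above 75 percent, 162 (88.5%) were higher and 1 was lower, with a median of 1.46. Transcripts over 25 percent made up 6.39% of the 12779 tested transcripts with a value but 316 of 423 (74.7%) of those at least 2-fold higher. None of the 41 transcripts at least 2-fold lower with a value was among them. The excess of lower calls among single-place transcripts depended on the scaling. In the fit of all transcripts 812 of them were higher and 796 lower with TMM factors from single-place transcripts, and 336 were higher and 1816 lower with total counts. Fitted alone, 649 were higher and 646 lower. The values rest on 1 GENCODE transcript per entry, whose length was within 10 percent of the entry's for 86.2% of the tested transcripts with a value. Among those, 6.66% of single-place transcripts and 88.5% of transcripts above 75 percent were higher, with medians of -0.03 and 1.35.

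**Figure D1:**
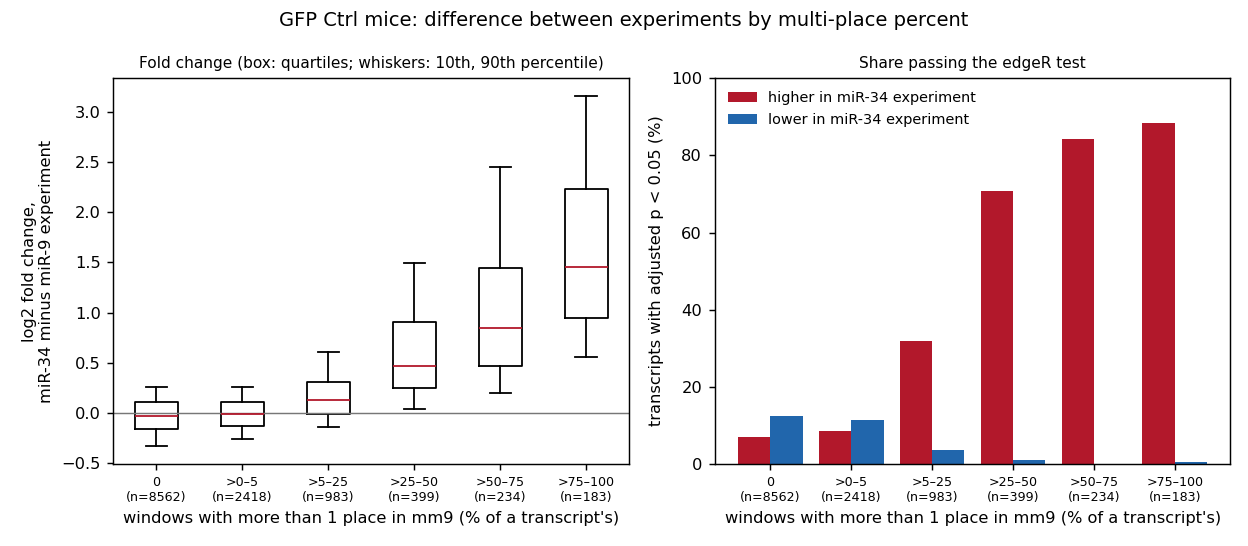
Left, log2 fold change (miR-34 minus miR-9 experiment, 3 against 3 GFP Ctrl mice) of tested transcripts grouped by the percent of their 50-base windows with more than 1 place in mm9 (boxes, quartiles; whiskers, 10th and 90th percentile); right, percent of each group that passed the edgeR test in each direction. The median rises from -0.03 in single-place transcripts to 1.46 above 75 percent, and the percent called higher from 6.83 to 88.5.

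Ppia and Eno1b were among the transcripts with the largest differences. Ppia encodes cyclophilin A, a prolyl isomerase widely used as a reference gene in quantitative PCR. Its level (NM_008907, 95.97% multi-place) was 547, 545 and 512 CPM in mice 10, 4 and 8 of the miR-34 experiment, and 0.763, 1.09 and 1.29 CPM in mice 16, 2 and 8 of the miR-9 experiment. All 3 mice of one set were thus far above all mice of the other, a 510-fold ratio of means (log2 fold change 9.01, SE 0.08, edgeR adjusted p 4.73e-13). Eno1b, a retrotransposed copy of the glycolytic enzyme enolase 1, was 865, 848 and 865 CPM against 18.2, 22.5 and 20.4 CPM (log2 fold change 5.40, SE 0.06, edgeR adjusted p 1.64e-12). The groups did not overlap for either gene.

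Several genes of protein synthesis and energy supply stood with Ppia. Rps23, a protein of the small ribosomal subunit, was 227, 220 and 217 CPM in the miR-34 experiment and 0.482, 0.639 and 0.773 CPM in the miR-9 experiment (log2 fold change 8.47, SE 0.08). Atp5g2, a subunit of the ATP synthase ring, was 73.9, 75.3 and 81.2 CPM against 0.602, 0.182 and 0.361 CPM (7.59, SE 0.15). Rpl28, of the large ribosomal subunit, was 128, 121 and 114 CPM against 2.09, 1.51 and 1.29 CPM (6.18, SE 0.10). The sets did not overlap for any of the 3, and Rpl28 had 52, 33 and 25 reads in mice 16, 2 and 8 of the miR-9 experiment. Dynlt1f (6.91), Rpl31-ps12 (6.55) and Ermard (4.66) completed the 8 NM_ transcripts with the largest log2 fold changes among those with a mean of at least 100 scaled reads.

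Tuba1b, Tuba1c, Tuba1a, Ubb and Ubb-ps, which have near-identical copies, were also higher, and reads cannot be divided with certainty among such copies. Tuba1b was 1490, 1470 and 1510 CPM against 99.3, 89.1 and 93.6 CPM, a log2 fold change of 3.98 (SE 0.05). Its neighbours Tuba1c (2.52) and Tuba1a (1.70), which also encode alpha-tubulin, the building block of microtubules, were higher too. Ubb (2.63), which supplies ubiquitin for protein degradation, and the pseudogene Ubb-ps (2.86) were higher by nearly the same amount. Ubb-ps was 2240, 2120 and 2100 CPM in the miR-34 experiment and 297, 296 and 296 CPM in the miR-9 experiment, with little spread in either set.

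**Figure D2:**
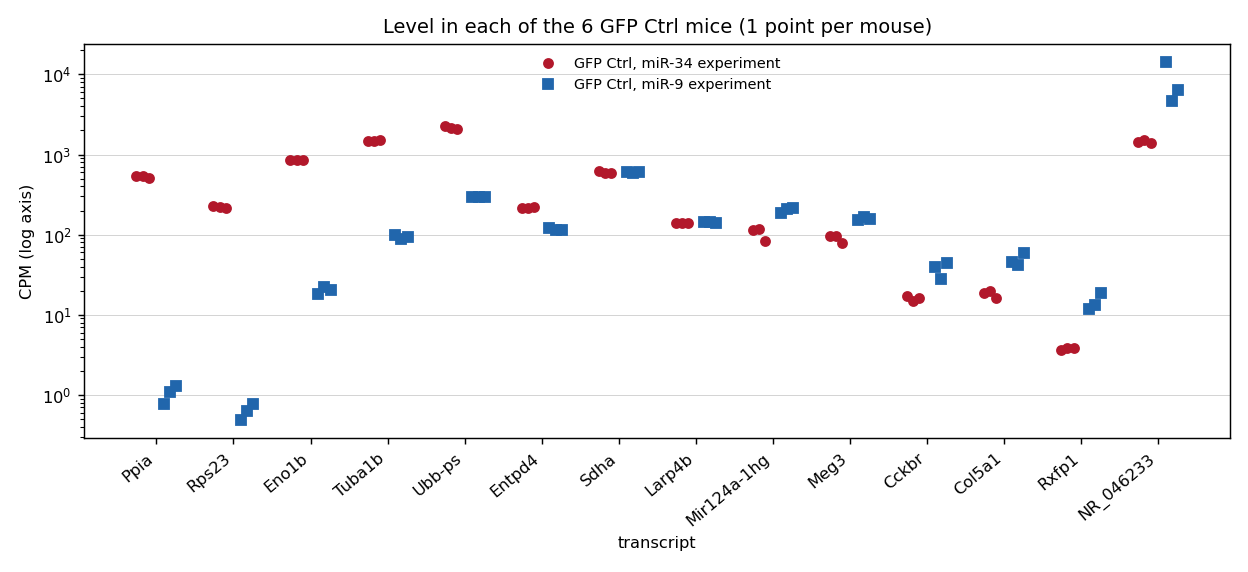
Level of 14 transcripts in each of the 6 GFP Ctrl mice (CPM, log axis; 1 point per mouse; circles, miR-34 experiment; squares, miR-9 experiment). From left, transcripts that were higher in the miR-34 experiment, Sdha and Larp4b with nearly equal levels in all mice, and transcripts that were lower, of which entry NR_046233 varied most among the mice of the miR-9 experiment.

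Transcribed pseudogenes were higher more often than the other class with over 100 tested NR_ entries, the lncRNAs. Of 130 tested NR_ pseudogene entries 87 (66.9%) were higher and 2 lower, with a median log2 fold change of 1.04. The 789 NR_ entries tested had 131 (16.6%) higher and 74 (9.38%) lower, close to the 13.6% and 10.9% of the 12443 NM_ transcripts. Of the 510 lncRNA entries 24 were higher (4.71%), fewer than the 13.8% of all tested transcripts. The 54 that were lower (10.6%) were close to the 10.8% of all tested transcripts. Transcribed pseudogenes took 0.737%, 0.724% and 0.694% of the counts in the miR-34 experiment and 0.267%, 0.257% and 0.265% in the miR-9 experiment. An exact two-sided permutation test gave p = 0.1 for this share, the smallest that 3 against 3 mice allow.

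Among NR_ entries with a mean of at least 100 scaled reads, the largest rises were those of Gm7977 (log2 fold change 6.84), NR_028042 (5.84), E030024N20Rik (3.54), 2610005L07Rik (3.08) and Mir682 (3.01). E030024N20Rik was 285, 287 and 287 CPM against 22.4, 27.6 and 23.9 CPM. One of the copies of the Ppia window lay inside its annotated span on chromosome 19. Norad, a cytoplasmic RNA that binds Pumilio proteins, was among the most abundant non-coding entries per length and had a log2 fold change of 1.48 (SE 0.04). The GENCODE transcripts of Norad and of E030024N20Rik cover only a small part of their entries. Their multi-place percents are therefore not printed, but they entered the counts by multi-place percent.

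Entry NR_046233, for which the tables used give no gene symbol, went the opposite way. It was 1430, 1520 and 1400 CPM in the miR-34 experiment and 14300, 4640 and 6330 CPM in mice 16, 2 and 8 of the miR-9 experiment, a log2 fold change of -2.54 (SE 0.33, edgeR adjusted p 0.000278). Mouse 16 stood apart with 1.46% of its counts on this entry, against 0.474% and 0.646% in mice 2 and 8 and 0.137% to 0.149% in the other set. The share of all NR_ entries together was 2.05% ± 0.0453 (SD, n = 3) in the miR-34 experiment and 2.12% ± 0.544 in the miR-9 experiment. Without NR_046233 it was 1.91% ± 0.0427 against 1.26% ± 0.0198. The difference in the NR_ share therefore changed direction with this 1 entry.

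**Figure D3:**
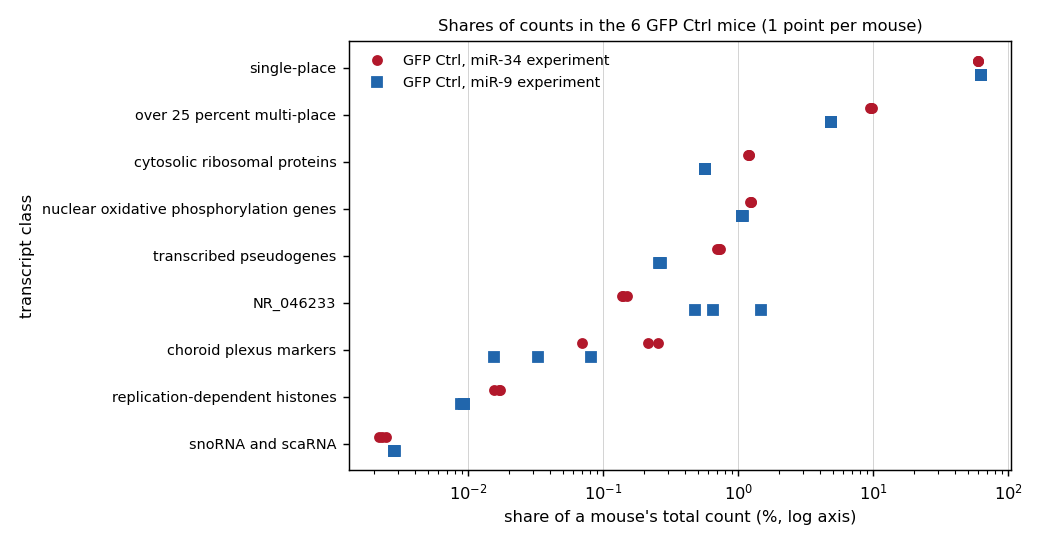
Share of each GFP Ctrl mouse's total count (percent, log axis) on 9 classes of transcripts; circles, mice of the miR-34 experiment; squares, mice of the miR-9 experiment. Entry NR_046233 and choroid plexus markers vary over several fold within a set, whereas transcripts over 25 percent multi-place lie between 9.52% and 9.73% in one set and between 4.86% and 4.89% in the other.

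Gene lists showed which functions the difference touched (plot of gene lists), read against the 13.8% higher and 10.8% lower among all tested transcripts, whose median log2 fold change was 0.00. Of 72 tested cytosolic ribosomal protein transcripts 70 were higher and none lower, with a median of 1.22. Their summed level was 12100 to 12300 CPM in the miR-34 experiment and 5540 to 5600 CPM in the miR-9 experiment, and 62 of the 72 were over 25 percent multi-place. Rpl4, the member with the most reads, differed little at 588 ± 5.27 against 499 ± 5.73 CPM (SD, n = 3), a log2 fold change of 0.24. The only single-place member was higher as well.

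Histone genes were higher as well. Replication-dependent histones, which package newly made DNA and whose genes lie in clusters of near-identical copies, were higher for 25 of 29 tested transcripts with a median of 2.32. H2bc1 had 79, 51 and 65 reads in the miR-34 experiment and none in any mouse of the miR-9 experiment. H2bc4, the member with the most reads, had a log2 fold change of 0.34. Of 10 replacement histones, used outside DNA replication, 4 were higher, among them H3f3a (2.39) and H2az1 (2.38).

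Chaperones, which fold newly made and damaged proteins, divided by multi-place percent. Of 17 tested transcripts 11 were higher, with a median of 0.63. None of the 5 single-place members passed the test, among them Hsph1 (0.01), Hspa4 (0.03) and Hspa5 (0.56). Hspa8, the constitutive Hsc70 (88.64% multi-place), was 2590, 2590 and 2450 CPM against 1110, 1160 and 1190 CPM, a log2 fold change of 1.14. Hspa1a, its inducible relative, had a log2 fold change of 1.72. Of 29 tested transcripts of immediate early genes, which neurons induce on activity, 1 passed the test, Bdnf entry NM_001048142 (0.88). Fos, the best known of them, was 34.8, 13.6 and 15.6 CPM in one set and 8.80, 9.58 and 55.6 CPM in the other, so the sets overlapped.

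Mitochondrial energy genes were higher by a smaller amount, also where their sequence was single-place. Of 76 tested nuclear genes of oxidative phosphorylation 57 were higher and 1 lower, with a median of 0.27. Among their 40 single-place transcripts 22 were higher and 1 lower, beside 6.83% and 12.4% of all single-place transcripts. Fitted with single-place transcripts alone, 26 of the 40 were higher. Cox6a2, the heart and muscle isoform of a cytochrome oxidase subunit, was the member that was lower (-0.75, SE 0.19), and Sdhb (-0.01) barely differed. Mitochondrial ribosomal proteins had 28 of 73 higher and none lower, a number that fell to 16 with total counts and to 17 without mouse 16 of the miR-9 experiment, without mouse 10 of the miR-34 experiment or without mouse 8 of the miR-9 experiment, and to 18 without mouse 4 of the miR-34 experiment. Proteasome subunits had 15 of 35 higher, but only 3 of their 21 single-place transcripts, with a single-place median of 0.05. Psma5 (1.52, 53.69% multi-place) differed most, and Psmd1, the member with the most reads, had a value of -0.06.

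Length went with the direction among single-place transcripts. In the shortest quintile (45 to 1570 bases) 14.2% were higher and 4.26% lower, and in the longest quintile (4470 to 23500 bases) 6.42% were higher and 19.2% lower. Median log2 fold changes were 0.08 and -0.06. When single-place transcripts were fitted alone these shares were 15.2% and 2.39% in the shortest and 7.24% and 11.9% in the longest quintile. The part of transcript length in the differences of single lists was not tested.

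**Figure D4:**
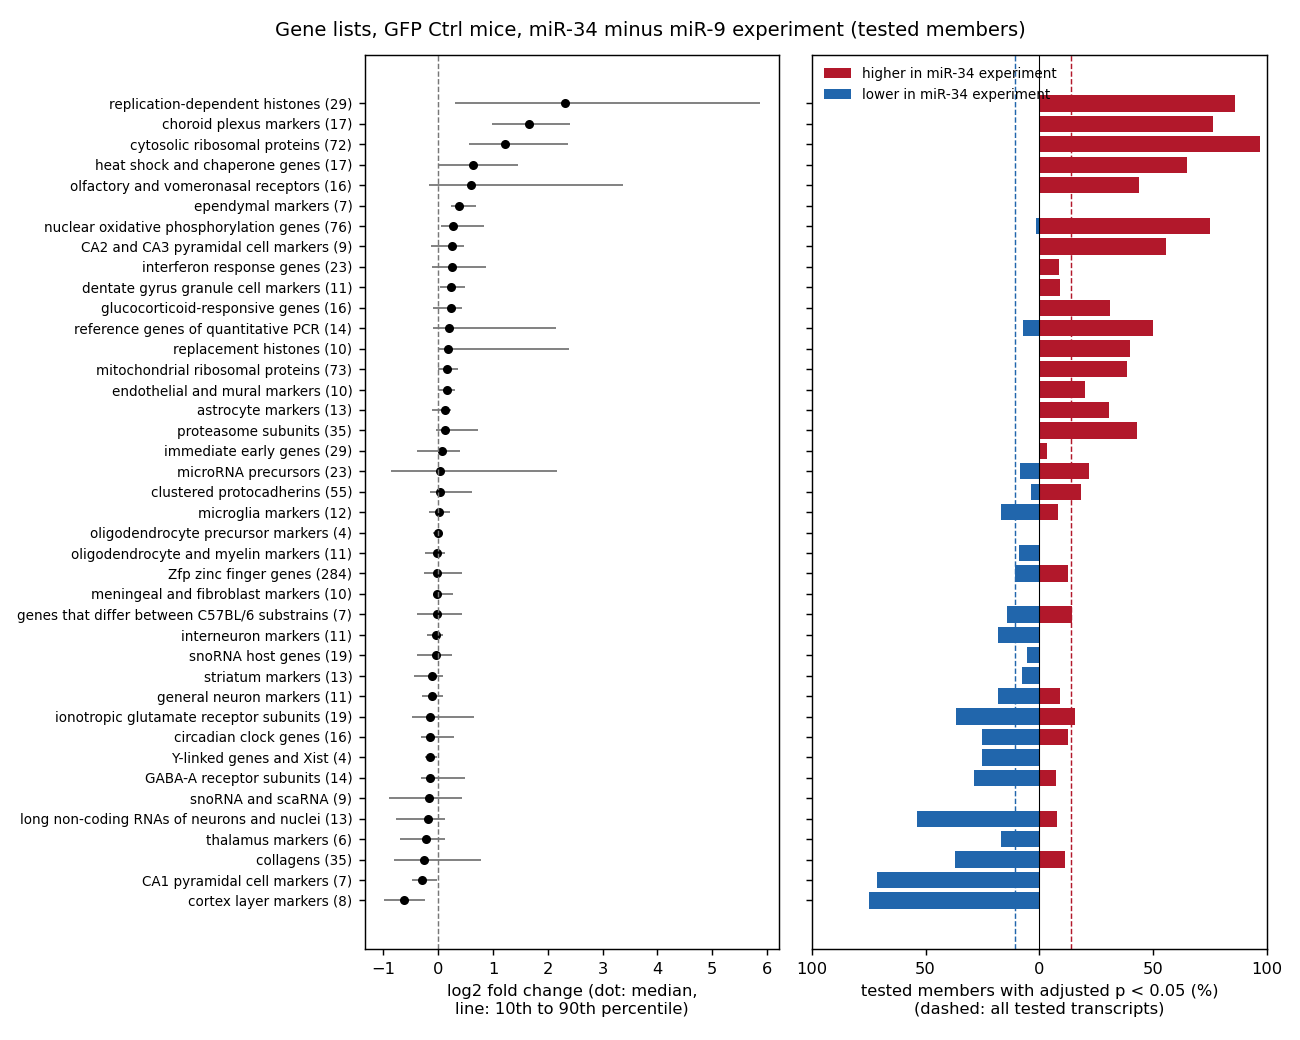
Gene lists with at least 4 tested members (number in parentheses). Left, median log2 fold change of the tested members (miR-34 minus miR-9 experiment) with the 10th to 90th percentile; right, percent of tested members that passed the edgeR test in each direction, with the percent of all tested transcripts (13.8 and 10.8) as dashed lines. Replication-dependent histones (median 2.32) lie at the top and cortex layer markers (-0.63) at the bottom.

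The transcripts that were lower in the miR-34 experiment differed less, with 47 at least 2-fold lower beside 463 at least 2-fold higher. Of the 1426 lower transcripts 1064 were single-place, beside 8562 of all 13232 tested. Rxfp1, the receptor of relaxin, was 3.60, 3.89 and 3.89 CPM in the miR-34 experiment and 11.7, 13.1 and 18.8 CPM in the miR-9 experiment (log2 fold change -1.93, SE 0.20, edgeR adjusted p 4.56e-05). Col5a1, a fibrillar collagen chain, was 18.9, 20.1 and 16.2 CPM against 45.1, 41.9 and 59.6 CPM (-1.41, SE 0.14). Cckbr, the brain cholecystokinin receptor, was 17.4, 14.8 and 16 CPM against 39.5, 27.8 and 43.7 CPM (-1.20, SE 0.16). The groups did not overlap for these 3 genes, and mouse 8 of the miR-9 experiment had the highest level of each. Cplx3 (-1.33), a complexin of synaptic release, Ccn2 (-1.29), Sowahb (-1.21), Bmp3 (-1.18), a bone morphogenetic protein, and Cbln1 (-1.14), a synaptic organizer, made up the rest of the 8. Ccn2 was not called without mouse 10 or without mouse 4 of the miR-34 experiment, and fell in size to -0.7 without mouse 8 of the miR-9 experiment.

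Mir124a-1hg, Meg3 and Mirg were among the non-coding transcripts that were lower. Mir124a-1hg, from which a precursor of the neuronal miRNA miR-124 is cut, was 115, 117 and 84.5 CPM in the miR-34 experiment and 189, 208 and 214 CPM in the miR-9 experiment (-0.95, SE 0.10, edgeR adjusted p 5.51e-05). Meg3, a maternally expressed RNA that is abundant in neurons, was 94.9, 97 and 79 CPM against 154, 167 and 155 CPM (entry NR_003633, -0.81, SE 0.07). Mirg, from the same imprinted region, had a log2 fold change of -0.86. All mice of one set were below all mice of the other for the 3 transcripts. In the list of neuronal and nuclear lncRNAs 7 of 13 were lower and 1, Kcnq1ot1 (0.52), was higher. The 7 became 4 without mouse 16 of the miR-9 experiment. Kcnq1ot1 was not called with total counts or without mouse 4 of the miR-34 experiment, mouse 2 or mouse 8 of the miR-9 experiment. Malat1, which is retained in nuclear speckles, had a log2 fold change of -0.21 (edgeR adjusted p 0.0469). Mature miRNAs are not measured by these libraries. Of 1124 entries of miRNA precursors and their long host transcripts 23 could be tested, with 5 higher and 2 lower. The 2 that were lower were the host transcripts Mir124a-1hg and Mir100hg (-0.32). Of the 17 tested entries classed as miRNA 5 were higher and 0 lower.

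Collagens leaned to lower levels, with 13 of 35 tested transcripts lower and 4 higher and a median of -0.26. The 4 that were higher included Col8a1 (1.24), which is also a choroid plexus marker, and Col8a2 (1.17). Without mouse 4 or mouse 8 of the miR-34 experiment or mouse 8 of the miR-9 experiment 0 collagens were called higher, and without mouse 16 and mouse 2 of the miR-9 experiment 1 and 2 were. Among subunits of ionotropic glutamate receptors, the excitatory synaptic channels, 7 of 19 were lower and 3 higher. Gria2 entry NM_001039195 had a log2 fold change of -0.85 while entries NM_013540 (-0.10) and NM_001083806 (0.04) of the same gene were not called. Grin2a (1.51) and Grin2b (0.54), NMDA receptor subunits, were higher, and 49.45% of Grin2a's windows had more than 1 place. GABA-A receptor subunits, the inhibitory channels, had 4 of 14 lower, among them Gabra3 (-0.42). In the circadian clock list 4 of 16 were lower, among them Npas2 (-0.65), and 2 were higher. The 2 that were higher were entries of the same gene, Tef. Entry NM_153484 (1.64) had only 39, 16 and 30 reads against 23, 14 and 13, and entry NM_017376 was at 0.53. The 2 became 1 without mouse 10 or mouse 4 of the miR-34 experiment and without any 1 mouse of the miR-9 experiment.

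Several other gene families and response lists were counted in the same way. Zinc finger genes of the Zfp series had 36 of 284 higher and 31 lower, and the 31 became 53 with total counts and 18 without mouse 16 of the miR-9 experiment. Olfactory and vomeronasal receptors, sensory genes in large families of similar copies, had 7 of 16 higher and none lower, and 12 of the 16 were over 25 percent multi-place. The 7 became 4 without mouse 10 of the miR-34 experiment or mouse 16 of the miR-9 experiment. Genes induced by glucocorticoids had 5 of 16 higher, among them Ddit4 (0.61) and Fkbp5 (0.27), and this number ranged from 2 to 8 when 1 mouse was left out, with 2 without mouse 10 or mouse 8 of the miR-34 experiment or mouse 16 of the miR-9 experiment and 8 without mouse 4 of the miR-34 experiment. Interferon response genes had 2 of 23 higher, Ifit3 (0.89) and Isg15 (0.84), and none lower.

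Markers of hippocampal regions were compared between the sets. Dentate gyrus granule cell markers summed to 698 to 880 CPM in the miR-34 experiment and 619 to 830 CPM in the miR-9 experiment. CA1 markers summed to 1020 to 1120 CPM against 1200 to 1310 CPM, and 5 of 7 were lower, with a median of -0.30. Wfs1, a CA1 marker, was 169, 194 and 247 CPM against 310, 251 and 288 CPM (-0.48, SE 0.12), and was not called by DESeq2 or without mouse 4 of the miR-34 experiment or mouse 16 of the miR-9 experiment. The 5 became 2 without mouse 16 of the miR-9 experiment and 3 without mouse 8 of that experiment or without mouse 10 or mouse 4 of the miR-34 experiment. CA2 and CA3 markers went the other way with 5 of 9 higher and a median of 0.26, of which Bok (0.74) and Rgs14 (0.41) differed most. The 5 became 3 with total counts, without mouse 10 or mouse 4 of the miR-34 experiment and without mouse 16 or mouse 8 of the miR-9 experiment. In bulk tissue fewer cells of a type and less RNA per cell cannot be told apart.

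Cortex layer markers differed between the sets, and thalamus and striatum markers were also counted. Of 8 cortex layer markers 6 were lower in the miR-34 experiment and none higher, with a median of -0.63, and their summed level was 341 to 406 CPM against 489 to 681 CPM. Tshz2, the one with the most reads, was 76.0, 87.3 and 126 CPM against 187, 134 and 206 CPM (-0.87, SE 0.18). Cux2 (-0.70), Tbr1 (-0.62), Lamp5 (-0.42), Fezf2 (-0.35) and Ccn2 were the others, all single-place. Of 6 thalamus markers 1 was lower, Slc17a6 (-0.99), the vesicular glutamate transporter of thalamic neurons. Of 13 striatum markers 1 was lower, and the medians of the thalamus and striatum markers were -0.22 and -0.11. The part of the dissection in other differences was not tested.

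Choroid plexus markers were higher in the miR-34 experiment for 13 of 17 tested transcripts, with a median of 1.65, but differed widely within both sets. Ttr, the thyroid hormone carrier made by the choroid plexus epithelium, was 590, 1840 and 2210 CPM in mice 10, 4 and 8 of the miR-34 experiment and 232, 636 and 79.7 CPM in mice 16, 2 and 8 of the miR-9 experiment. The sets overlapped, since mouse 10 of one was below mouse 2 of the other. Kcne2, a potassium channel subunit of the same cells, had the same order of mice within each set. Only 3 of the 17 markers had no overlap between the sets on the higher side, and the number called fell to 2 without mouse 16 and 6 without mouse 8 of the miR-9 experiment, and to 3 without mouse 4 and 4 without mouse 8 of the miR-34 experiment. Summed over the list, levels ranged from 715 to 2580 CPM and from 153 to 796 CPM.

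Glial and vascular markers showed that the samples held more than neurons. Astrocyte markers summed to 3910 to 4110 CPM in the miR-34 experiment and 3660 to 3860 CPM in the miR-9 experiment, and 4 of 13 were higher. Gfap, the intermediate filament of astrocytes, had log2 fold changes of 0.81 for the less abundant entry NM_001131020 and 0.18, which did not pass, for NM_010277. Microglia markers summed to 722 to 779 CPM against 764 to 789 CPM, with 1 of 12 higher and 2 lower. The 1 that was higher, Aif1 (0.44), was not called by DESeq2 or without mouse 10 or mouse 4 of the miR-34 experiment or mouse 2 or mouse 8 of the miR-9 experiment, and 2 were higher without mouse 8 of the miR-34 experiment. Oligodendrocyte and myelin markers had 1 of 11 lower, which became 0 or 3 with any 1 mouse left out. Oligodendrocyte precursor markers 0 of 4 called, endothelial and mural markers 2 of 10 higher, and interneuron markers 2 of 11 lower. None of 7 ependymal and none of 10 meningeal and fibroblast markers passed the edgeR test. Without mouse 8 of the miR-34 experiment 4 of the meningeal and fibroblast markers were lower, and without mouse 2 of the miR-9 experiment 1 was higher. Red blood cell transcripts summed to at most 0.0456 CPM in any mouse.

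Within the list of genes known to differ between C57BL/6 substrains, Entpd4, a nucleotide-cleaving enzyme of the Golgi, was 215, 218 and 219 CPM in the miR-34 experiment and 122, 115 and 115 CPM in the miR-9 experiment (log2 fold change 0.89, SE 0.04, edgeR adjusted p 1.95e-08). None of the windows of its GENCODE transcript, which is shorter than the entry, had a second place. In the sponge mice the same contrast was 0.88. Of the other 6 members tested, Ide (-0.17) passed the test, whereas Gabra2 (0.14), Wdfy1 (-0.09), Fgfbp3 (-0.03), Cyfip2 (-0.01) and Crb1 (-0.72) did not. Few reads lay behind 2 of these values, with 10 to 26 per mouse for Cyfip2 entry NM_001252460 and 6 to 32 for Crb1. Ide was not called without mouse 10 or mouse 8 of the miR-34 experiment or without mouse 16 or mouse 2 of the miR-9 experiment. The labels give C57BL/6 for all mice and no substrain. Y-linked Ddx3y (94.7 ± 3.26 against 108 ± 5.22 CPM) and Eif2s3y (38.3 ± 9.92 against 46.1 ± 2.25 CPM) were read in both sets of males.

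Reference genes of quantitative PCR divided in the same manner as other lists. Sdha, a subunit of succinate dehydrogenase, was 615, 591 and 594 CPM against 601, 593 and 606 CPM, a log2 fold change of 0.00 (SE 0.03). Hprt (-0.03), Polr2a (-0.03), Gusb (-0.04) and Tfrc (0.01) were not called either, and all 5 were single-place. Pgk1 (1.01), Rplp0 (0.90), Rpl13a (0.63), Ywhaz (0.43) and Actb (0.40) were higher, beside Ppia, and these 5 had multi-place percents from 14.69 to 92.04. Of the 7 single-place members Tbp was the 1 that was called (-0.33, edgeR adjusted p 0.0174).

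Most transcripts were nevertheless close in all 6 hippocampi. A read was found in all 6 mice for 15520 entries and in none for 12151, and 12319 had more than 10 scaled reads in each mouse. Of the tested transcripts 71.4% differed by less than 1.2-fold between the sets, and 75.7% of single-place transcripts did. Among 3859 transcripts with a mean of at least 1000 scaled reads, 3086 (80.0%) had a coefficient of variation under 10% over the 6 mice, with a median of 5.54%. Those with the lowest variation included C1qtnf4 (0.681%), a secreted C1q and TNF related protein, Itm2b (0.826%), a membrane protein, and Mgat3 (0.859%), which adds the bisecting sugar of N-glycans. Larp4b, an RNA-binding protein, was 141, 139 and 140 CPM in the miR-34 experiment and 142, 142 and 141 CPM in the miR-9 experiment. The sets did not overlap for Larp4b although they differed by 0.02 on the log2 scale, and it was not called.

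Abundant coding transcripts per length included neuronal and glial genes. Cpe, which processes neuropeptides, had a mean of 1950 RPKM (CPM per kilobase of the entry) over the 6 mice, Cst3, a secreted protease inhibitor, 1570 RPKM, Apoe, the lipid carrier of astrocytes, 1470 RPKM and Nrgn, a postsynaptic calmodulin-binding protein, 1380 RPKM. Their log2 fold changes were 0.11, 0.24, 0.15 and 0.17. Transcripts read in only 1 set were rare. There were 7 entries with at least 10 reads in each mouse of the miR-34 experiment and none in the other set, among them Mir684-2, Ccl27a and Cntfr entry NM_001136056, and 1 with the reverse pattern, 1700108J01Rik, with 25, 23 and 15 reads in mice 16, 2 and 8.

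The same contrast was then computed in the 6 sponge mice, which are different animals but also received different sponges in the 2 experiments. There 1782 transcripts (13.5%) were higher and 1224 (9.25%) lower in the miR-34 experiment. Of the 3249 transcripts called in the GFP Ctrl mice 3126 (96.2%) had the same direction, and 2113 (65.0%) were called in the same direction, which is 70.3% of the calls in the sponge mice. Among transcripts over 25 percent multi-place 609 of 647 (94.1%) were called again, and among single-place transcripts 871 of 1649 (52.8%). Across transcripts the fold changes had a Pearson correlation of 0.97 in the first class and 0.44 in the second, a description only, since genes are not independent replicates. Ppia was 9.09, NR_046233 was -2.49 and Mir124a-1hg was -0.71 in the sponge mice. Rxfp1 was -0.98 and Rgs14 -0.18, the latter not called (edgeR adjusted p 0.0908).

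**Figure D5:**
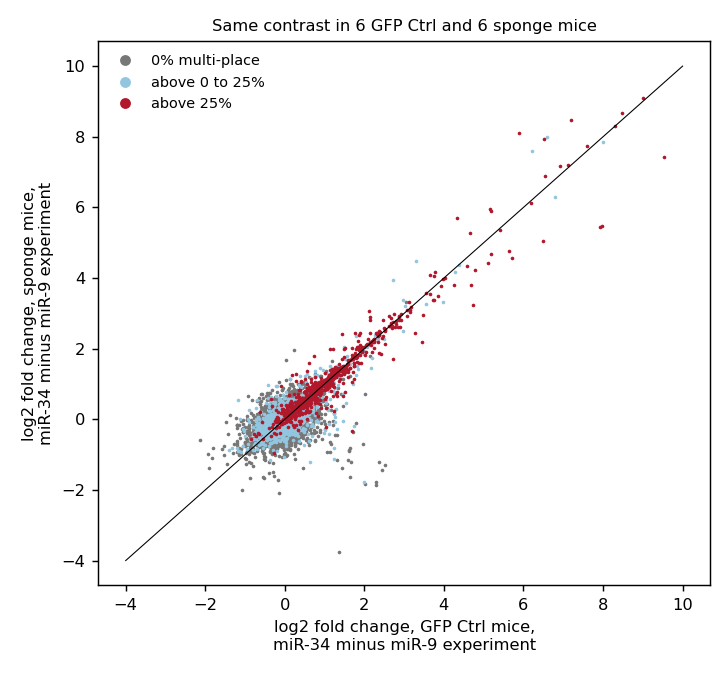
Log2 fold change (miR-34 minus miR-9 experiment) of each tested transcript in the 6 GFP Ctrl mice (x axis) and in the 6 sponge mice (y axis), coloured by multi-place percent, with the line of equality. Transcripts over 25 percent multi-place follow the line (Pearson correlation 0.97), and single-place transcripts do so less (0.44). Some transcripts with positive values on x lie below 0 on y, among them choroid plexus markers.

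A test of the difference between the contrasts of GFP Ctrl and sponge mice called 0 transcripts (0%) at an edgeR adjusted p of 0.05, with 819 (6.19%) at an unadjusted p under 0.05, and no other tool was run for it. Choroid plexus markers had opposite signs in the 2 contrasts. All 13 that were called in the GFP Ctrl mice had a negative log2 fold change in the sponge mice, with a median of -1.22 against 1.66, and none was called there. The smallest edgeR adjusted p for the difference among these 13 was 0.698.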

How the data were processed

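RNA of 12 mice was sequenced as 50 bp single end reads, and the 6 GFP Ctrl mice were compared here (3 per experiment, 1 sample per mouse). The authors deposited raw counts of reads per RefSeq transcript, with the length of each entry in bases. The methods name mapping to mm9, whereas the submitters' processing notes list mm10 and STAR; the counter and the rule for reads with several matches are not given in the sources used here. The entry length differed between the experiments for 2 entries.

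A mean of more than 10 scaled reads was required, and edgeR 4.0.16 in R 4.3.3 tested the remaining transcripts by quasi-likelihood after TMM scaling. Here p was adjusted by Benjamini-Hochberg over all 13232. The use of strand in counting is not given in the sources used here, so overlapping and near-identical genes are uncertain. P-values set a difference against the spread between mice within a set, with a biological coefficient of variation of 0.0552. They do not measure the variation between experiments, which were not replicated. Intervals of depth cover counting error only, since PCR copies cannot be told apart. Symbols and classes came from RefSeq (32422 of 32850 entries, by accession). Multi-place percents used the GENCODE M1 transcript of the symbol nearest in length and NCBIM37 (mm9), windows every 5 bases, and at least 12 bases on each side of a junction. The printed coding window of a gene was the one with the most places among those that could be printed, or the first where none had a second place. RPKM used the deposited lengths and the total counts without TMM factors.

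Named transcripts were the 8 NM_ and 5 NR_ entries with the largest and the smallest fold change (called, no overlap, mean of at least 100 scaled reads), the extreme called members and the member with the most reads of each list, all members of 3 lists, the most abundant, the least and the most variable entries. Other list members, windows and Tuba1a, Tuba1c and Ubb were named after their values were seen. The members and lists were chosen with earlier results of these data known. Alternatives were DESeq2 1.42.0, other scalings and filters, thinned counts, sums by symbol, all 12 mice, the criterion of the methods and leaving out each mouse. Those on single-place transcripts, on entries of matching length and without NR_046233 were added after seeing the data. The code was tested on simulated data. Levels of GFP and of the sponges were not analysed here. Some transcripts and 1 coding window are not reported here. Analysis used Python 3.11.15, pandas 2.3.3, scipy 1.17.1, numba 0.67.0 and matplotlib 3.10.9.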

Additional observations from a re-analysis of the deposited data

How the results depend on the processing

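No paired analysis was possible because the sets of mice share only 1 number in their labels. The number of transcripts higher in the miR-34 experiment (1823) fell to 1080 with the criterion of the methods (ratio above 1.2, unadjusted p) and to 649 among single-place transcripts alone, a smaller set. The number lower (1426) rose to 2436 with total counts and fell to 646 among single-place transcripts, and ranged from 876 (without mouse 16 of the miR-9 experiment) to 1247 when 1 mouse was left out. Transcripts at least 2-fold higher (463) numbered 253 with a mean above 100 and 32 among single-place transcripts. Those at least 2-fold lower (47) numbered 71 without a filter, 11 with a mean above 100 and 28 among single-place transcripts, and 33 to 74 when 1 mouse was left out, the latter without mouse 8 of the miR-34 experiment. All other alternatives, thinning to equal depth (1605 higher, 1324 lower) and DESeq2 (1459 and 1078) included, stayed within 1.5 times. None of the called transcripts among the 173 named changed direction under these alternatives. Of those not called, Col1a2 (0.01) ranged from -0.44 to 0.23 and Fos (-0.15) from -0.72 to 1.23 when 1 mouse was left out. The criterion of the methods gave no ratio for H2bc1 and Mir684-2, which had 0 reads in one set.

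Differences in shares, in percentage points, turned for NR_ entries (-0.0712), to 0.669 without the 10 most abundant transcripts, and ranged from -0.275 to 0.238 with 1 mouse left out, and for the 10 most abundant transcripts (-0.192), with a range from -0.331 to 0.0702; both upper values are without mouse 16 of the miR-9 experiment. Without the 10 most abundant transcripts the difference was 4.32 for transcripts over 25 percent multi-place (4.74) and 0.647 for cytosolic ribosomal proteins (0.624). The median of miRNA precursors and host transcripts (0.04) became -0.07 without mouse 4 of the miR-34 experiment, with a range up to 0.10. That of immediate early genes (0.07) ranged from -0.21 to 0.41. The causes were not tested. Depth limits most what is said of transcripts under 10 reads, which were not tested.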
